A study of Mus musculus with 63 samples.

Results

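The potassium channel genes of the mouse were described here across hippocampal regions, genotypes, lesion and synaptopodin co-immunoprecipitation (coIP). Members were all genes whose symbol begins with Kcn and whose type is protein-coding in the deposited annotation, which gave 94 of 55291 gene symbols, and 5 antisense genes with such symbols (for example Kcnq1ot1) were not members. RNA came from organotypic entorhino-hippocampal tissue cultures, prepared at postnatal days 3 to 5 from C57BL/6J wildtype (Synpo+/+) or B6.129-Synpotm1Mndl/Dllr (Synpo-/-) mice of either sex and kept for at least 18 days in vitro. The Synpo-/- strain lacks synaptopodin in the whole animal and was crossed back to C57BL/6J. Lesioned cultures were taken 3 days after the entorhinal cortex was cut off (entorhinal cortex lesion, ECL), and controls were not lesioned. Each regional library held one dentate gyrus (DG) or one CA3 piece of a single culture, cut out with a scalpel. These were 4 control and 7 ECL libraries of the Synpo+/+ DG, 2 and 3 of the Synpo+/+ CA3, 7 and 4 of the Synpo-/- DG, and 6 and 6 of the Synpo-/- CA3. Each coIP or input library pooled 6 whole cultures, with 5 control and 5 ECL libraries per fraction for Synpo+/+ and 2 per fraction for Synpo-/-. The labels of the Synpo-/- coIP and input libraries give no lesion state, and their age and days in vitro are known only from the study's general methods. The study asked how hippocampal synapses adapt to the loss of entorhinal input, whether synaptopodin takes part, and which mRNAs are found with synaptopodin.

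Potassium channels let potassium leave the cell along its gradient, and so set the resting potential, end the action potential and limit repetitive firing. Voltage-gated channels (Kcna, Kcnb, Kcnc, Kcnd, Kcnh and Kcnq genes) are built from pore-forming subunits and are tuned by silent subunits (Kcnf, Kcng, Kcns, Kcnv) and by auxiliary proteins such as the cytosolic Kcnab and Kcnip families. Inward rectifiers (Kcnj) hold the resting potential, couple to G proteins or take up potassium into astrocytes, two-pore channels (Kcnk) carry leak currents, and Kcnma1, Kcnn and Kcnt channels open with calcium or sodium.

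One library went against its label. Synpo+/+ DG ECL replicate 5 held 15.7 CPM of Prox1, the transcription factor of dentate granule cells, against 12.6 to 17.3 CPM in the 5 Synpo+/+ CA3 libraries and 128 to 219 CPM in the other Synpo+/+ DG libraries. CPM are counts divided by the library total, scaled by TMM over the 39 regional libraries. The library is called the library labelled DG ECL replicate 5 here, and edgeR counts and fold changes that rest on it are given with and without it. Among the Synpo-/- libraries, CA3 control replicate 1 held 44.6 CPM of Prox1. The other Synpo-/- CA3 control libraries held 15.4 to 18.7 CPM and the Synpo-/- DG libraries 118 to 213 CPM. In Synpo+/+ control cultures 6 of 7 granule cell markers were higher in DG and 4 of 5 CA3 pyramidal cell markers were lower. Synpo itself does not check the genotype, since its level in the regional Synpo-/- libraries (29.7 to 68.1 CPM) was not below that in the Synpo+/+ libraries (19.0 to 39.6 CPM), so genotypes rest on the labels. Libraries held 11601154 to 53682143 counts, and the 94 members summed to 1753 to 2679 CPM per library. In the coIP experiment the Synpo+/+ libraries held 11601154 to 29014397 counts and the Synpo-/- libraries 42886994 to 53682143. Genotype and depth cannot be told apart there. The labels do not say whether cultures of a group came from different animals, so p-values measure the spread between these libraries.

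Of the 94 members, 83 had a count in every regional library, and the other 11 had none in up to 7 of the 39 libraries. Levels between genes were compared per length, as CPM per kb of exon, averaged over the 4 regional control groups. Kcnj3, a subunit of G protein-coupled inward rectifiers, came first with 23.2 CPM per kb. It was followed by the axonal channel gene Kcna1 (19.6), the calcium-activated BK channel gene Kcnma1 (19.4), the two-pore channel gene Kcnk1 (19.2) and the A-type channel gene Kcnd2 (18.9). Kcnip2 (16.2) and Kcnip4 (15.6), which encode calcium-binding auxiliary proteins of the Kcnd channels, Kcnq3 (14.5) and Kcnq5 (13.3), which encode subunits of the M-current, and Kcnj10 (12.1), the main potassium uptake channel of astrocytes, made up the first 10. These 10 genes held 53.0% of the summed level of the family. The first 5 were not apart beyond the spread between libraries, since over the 19 control libraries Kcnj3 ranged from 19.0 to 30.9 and Kcnd2 from 15.3 to 23.6 CPM per kb. The order differed between the regions, since in the Synpo+/+ CA3 controls Kcna1 (27.4), Kcnma1 (21.7) and Kcnq5 (20.3) lay above Kcnj3 (19.9), and Kcnq5 had 5.82 in the DG controls. At the other end, 48 members lay under 1 CPM per kb. By families, the 13 auxiliary genes (Kcnab, Kcne, Kcnip, Kcnrg) held 19.2% of the summed level, the 15 inward rectifiers 15%, the 8 Kcna genes 12.1% and the 5 Kcnq genes 9.85%.

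**Figure D1:**
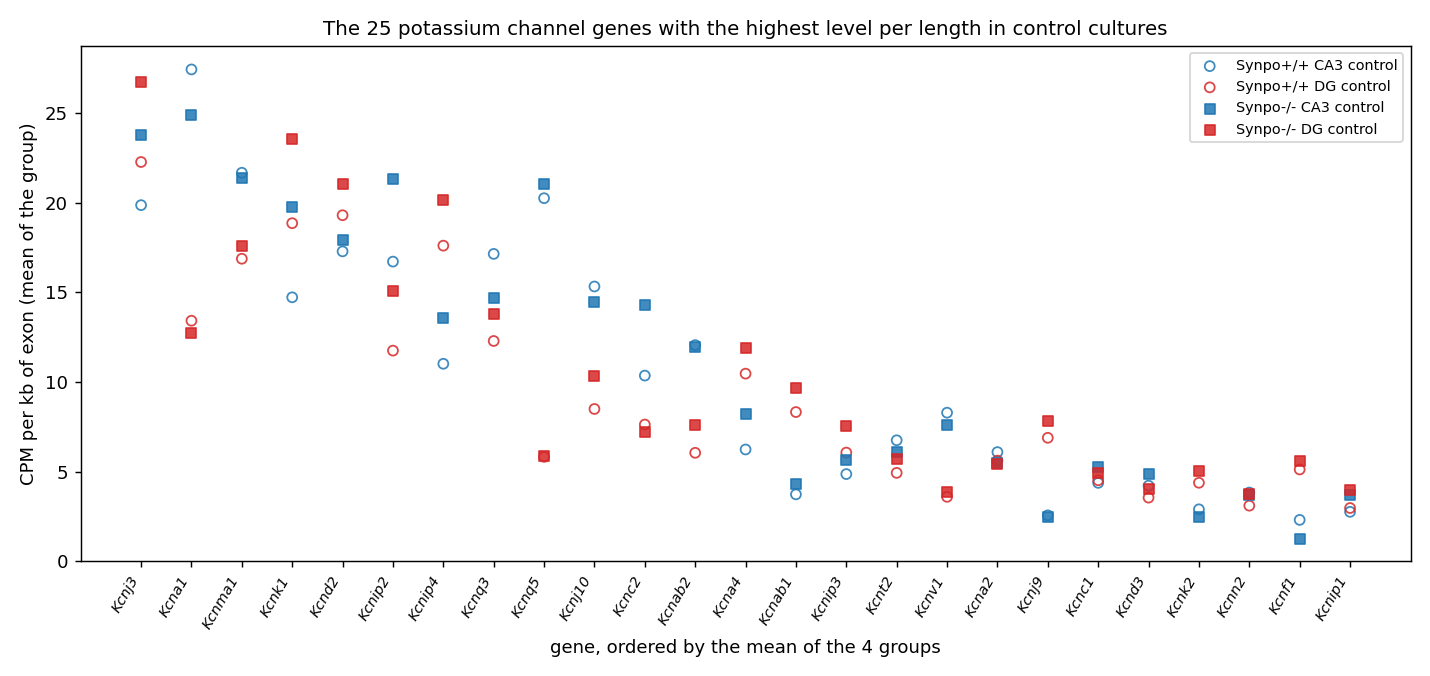
Mean level per length (CPM per kb of exon) of the 25 potassium channel genes with the highest level in control cultures. Each symbol is the mean of one regional control group (blue CA3, red DG, open circles Synpo+/+, filled squares Synpo-/-). Kcnq5 and Kcna1 lie higher in CA3 and Kcnj9 and Kcnf1 higher in DG in both genotypes.

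DG and CA3 differed in the level of some potassium channel genes. In Synpo+/+ control cultures, 11 of 89 members tested were higher in DG (12.4%, against 2.63% of all 25656 genes tested) and 9 were lower (10.1%, against 2.75%). In Synpo-/- control cultures 26 of 82 were higher (31.7%, against 13.1%) and 12 lower (14.6%, against 12.5%), so the share of lower members there was near the background. Without Synpo+/+ CA3 control replicate 2, 11 members were called in Synpo+/+ in place of 20, and the share over all genes in that fit is not given here. Both comparisons, which share no library, called 19 members in the same direction, 11 higher and 8 lower in DG, which is 95.0% of the Synpo+/+ calls and 50.0% of the Synpo-/- calls. The overlap over all called genes is not given here, so this overlap is not a trait of the channel genes. In bulk tissue, fewer cells of a type and less RNA per cell cannot be told apart. Oligodendrocyte markers were also lower in DG, 7 of 10 in Synpo+/+ and 10 of 10 in Synpo-/- controls, with a summed level of 589 to 984 CPM in DG and 1377 to 2226 CPM in CA3 of Synpo+/+ and 540 to 1707 against 1907 to 3109 CPM in Synpo-/-. Astrocyte markers were called lower in DG for 0 of 7 in Synpo+/+ and 4 of 7 in Synpo-/- controls, and interneuron markers higher for 3 and 5 of 8. None of the oligodendrocyte markers was at 0 in a regional library, and the part of these cell types in the regional differences was not tested.

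Of the genes of the M-current, a slow current that damps repetitive firing, Kcnq5 was lower in DG in both genotypes. Kcnq5 (chr1:21398403-21961942, minus strand, GRCm38) had the largest difference among the called members of Synpo+/+ cultures. It measured 133 and 179 CPM in the CA3 control libraries and 35.9, 44.9, 45.9 and 52.3 CPM in those of DG, with no overlap, and the log2 fold change was -1.80 ± 0.17 (SE, adjusted p = 3.29e-05). In Synpo-/- controls, CA3 libraries ranged from 126 to 189.8 CPM with a median of 166, and DG libraries from 32.4 to 56.9 CPM with a median of 50.7 (-1.80 ± 0.12, adjusted p = 4.10e-09). Kcnq3, another M-current subunit, was lower in Synpo+/+ (-0.48) and had -0.04 in Synpo-/-, where it was not called. The interaction of genotype and region called no member, so this difference between the genotypes did not pass its test.

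The Kcna genes and their cytosolic beta subunits differed in both directions. Kcna1 was lower in DG, with 131 and 132 CPM in the Synpo+/+ CA3 controls and 55.1, 62.6, 63.4 and 75.4 CPM in the DG controls (-1.03 ± 0.14, adjusted p = 0.000445), and with -0.92 ± 0.09 in Synpo-/-. Kcnab2 was lower in DG as well (-0.998 ± 0.14 and -0.60 ± 0.09). Kcna4, which forms inactivating A-type channels, was higher in DG (0.75 ± 0.15 and 0.58 ± 0.12), as was Kcnab1 (1.16 ± 0.16 and 1.22 ± 0.12), a beta subunit known for speeding inactivation. Kcnip4 was higher in DG (0.67 and 0.62), while Kcnip2 was lower (-0.51, not called, and -0.46, called). Among the Kcnc genes, which serve fast repolarization, Kcnc4 was higher in DG with 10.6, 12.0, 13.8 and 14.9 CPM against 3.89 and 4.01 CPM (1.70 ± 0.23 in Synpo+/+, 1.81 ± 0.17 in Synpo-/-), and Kcnc2 had -0.44 and -0.94 and was called in Synpo-/-. The Synpo+/+ call of Kcna4 was lost without CA3 control replicate 1, with log2 fold changes of 0.66 to 0.84 over the libraries left out.

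Kcnh7, which encodes a channel of the ERG group, was among the members with the largest positive differences. The Synpo+/+ DG controls measured 54.8, 58.5, 70.7 and 78.6 CPM and the CA3 controls 18.7 and 22.7 CPM (1.67 ± 0.18, adjusted p = 8.80e-05). The Synpo-/- DG controls, 63.4 to 86.3 CPM with a median of 74.3, also lay above all CA3 controls, 18.2 to 25.4 CPM with a median of 19.1 (1.89 ± 0.11). The silent subunit gene Kcnf1, whose product joins Kcnb channels, was higher in DG with 1.15 ± 0.23 in Synpo+/+ and 2.26 ± 0.14 in Synpo-/-, and the leak channel gene Kcnk9 with 1.20 ± 0.17 and 1.45 ± 0.11. The Kcnf1 call in Synpo+/+ was lost without CA3 control replicate 2. The silent subunit gene Kcnv1 was lower in DG (-1.21 ± 0.24 and -0.95 ± 0.14), as was the mechanosensitive leak channel gene Kcnk4 (-1.01 and -0.97), 13.2% of whose exon length is shared with Catsperz on the same strand. The Synpo+/+ call of Kcnk4 was lost without CA3 control replicate 1 or DG control replicate 1 or 3.

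A pair of inward rectifier genes that lie side by side differed between the regions in opposite directions. Kcnj9 (chr1:172320501-172329318, minus strand), a subunit of G protein-coupled channels, and Kcnj10 (chr1:172341210-172374085, plus strand) are transcribed away from each other, with 11888 bases between their RefSeq starts. Kcnj9 measured 20.6, 27.5, 28.9 and 41.0 CPM in the Synpo+/+ DG controls and 10.7 and 11.2 CPM in the CA3 controls (1.43 ± 0.23, adjusted p = 0.00173). Kcnj10 measured 40.1, 41.0, 49.0 and 53.5 CPM in DG and 65.4 and 100.3 CPM in CA3 (-0.84 ± 0.17, adjusted p = 0.00729). In both genes the groups did not overlap. In Synpo-/- controls Kcnj9 differed by 1.70 ± 0.10 without overlap, and Kcnj10 by -0.44 ± 0.12 (adjusted p = 0.00845) with overlap, since DG libraries reached 76.1 CPM and CA3 libraries began at 67.5 CPM. Without CA3 control replicate 2 the Synpo+/+ call of Kcnj10 was lost. It was also lost when the replicate number entered the edgeR fit as a block (adjusted p = 0.153). The other subunits of G protein-coupled channels differed less, with 0.17 and 0.22 for Kcnj3 (called in Synpo-/-) and -0.22 and -0.19 for Kcnj6 (not called). Kcnj2 and Kcnj4, strong inward rectifiers of neurons, had 1.24 and 1.38 in Synpo+/+ and 1.40 and 1.31 in Synpo-/-, and the Kcnj4 value in Synpo+/+ was not called.

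The promoters of Kcnq5, Kcnh7, Kcnj9 and Kcnj10 are shown. In control cultures these genes were called between the regions, in opposed directions, and the last 2 lie side by side. RefSeq starts (GRCm38.p6) were found for 69 of 94 members, and the 250 bases before the start nearest to the deposited annotation are given 5′ to 3′. Capitals mark the GC box, GGGCGG or its reverse complement CCGCCC on either strand. The windows are chr1:21961943-21962192 (minus) for Kcnq5, chr2:63184288-63184537 (minus) for Kcnh7, chr1:172329323-172329572 (minus) for Kcnj9 and chr1:172340960-172341209 (plus) for Kcnj10.
Kcnq5: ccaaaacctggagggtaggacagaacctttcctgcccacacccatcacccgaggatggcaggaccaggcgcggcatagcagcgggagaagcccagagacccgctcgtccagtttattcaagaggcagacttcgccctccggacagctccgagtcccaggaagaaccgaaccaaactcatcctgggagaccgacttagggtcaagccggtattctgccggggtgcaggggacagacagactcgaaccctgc
Kcnh7: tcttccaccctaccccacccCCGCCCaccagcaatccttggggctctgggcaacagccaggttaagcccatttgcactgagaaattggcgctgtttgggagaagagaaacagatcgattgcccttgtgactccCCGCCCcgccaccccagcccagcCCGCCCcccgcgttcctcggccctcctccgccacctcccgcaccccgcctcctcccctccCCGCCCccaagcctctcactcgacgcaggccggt
Kcnj9: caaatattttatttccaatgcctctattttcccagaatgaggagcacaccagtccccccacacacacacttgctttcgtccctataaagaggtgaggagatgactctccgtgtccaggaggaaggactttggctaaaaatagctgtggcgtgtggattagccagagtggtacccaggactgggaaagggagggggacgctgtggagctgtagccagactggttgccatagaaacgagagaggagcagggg
Kcnj10: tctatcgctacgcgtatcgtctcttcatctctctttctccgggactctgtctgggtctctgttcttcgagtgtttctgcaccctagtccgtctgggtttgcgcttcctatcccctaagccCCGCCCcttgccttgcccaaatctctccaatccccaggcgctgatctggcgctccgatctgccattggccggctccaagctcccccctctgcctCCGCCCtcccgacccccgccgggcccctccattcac
Kcnh7 held 4 GC boxes and Kcnj10 held 2, and the letters were not found in the windows of Kcnq5 and Kcnj9. A GC box was found in 42 of the 94 promoters listed for the 69 members (44.7%) and in 32.7% of all 32851 promoters. Kcnj9 had a GC content of 52.0% with 5 CG dinucleotides, and Kcnj10, its neighbour, 62.0% with 17.

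**Figure D2:**
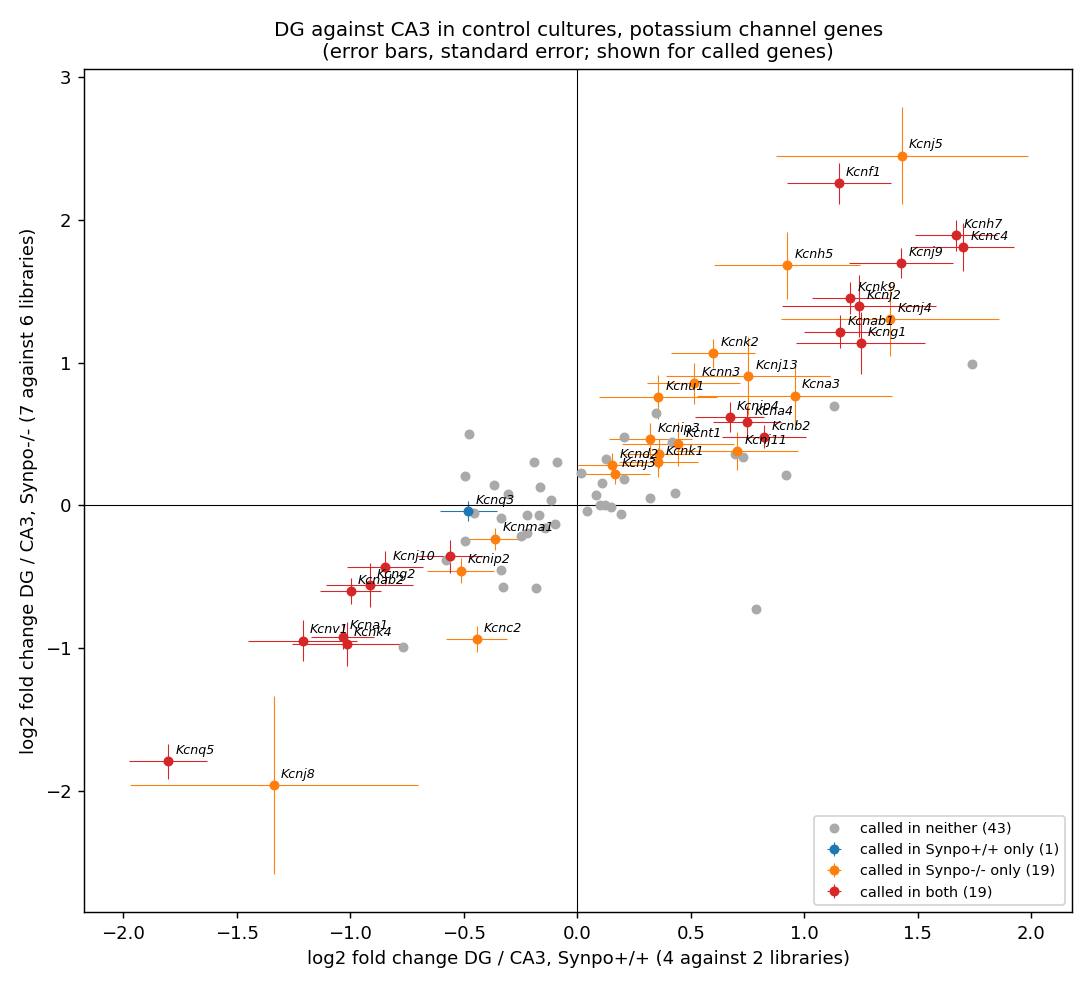
Log2 fold change of DG against CA3 in control cultures, Synpo+/+ (x axis, 4 against 2 libraries) and Synpo-/- (y axis, 7 against 6), for the 82 members tested in both. Bars are standard errors, drawn for called members. The 19 members called in both (red) lie in the same direction in both genotypes, from Kcnq5 at the lower left to Kcnh7, Kcnc4 and Kcnf1 at the upper right.

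After ECL the regional pattern was again found. In Synpo-/- cultures 15 of 85 members were higher in DG (17.6%, against 7.37% of 22767 genes) and 15 lower (17.6%, against 6.24%). Kcnq5 had -2.21 ± 0.20, Kcna1 -0.90 ± 0.11, Kcnh7 1.32 ± 0.13, Kcnj9 1.27 ± 0.14 and Kcnc4 2.14 ± 0.25. In Synpo+/+ ECL cultures with all libraries, 4 of 85 members were higher (Kcnj9, Kcnc4, Kcnh7 and Kcnk9, 4.71% against 1.54% of 24029 genes) and Kcnq5 was lower (1 member, 1.18% against 0.508%). Without the library labelled DG ECL replicate 5, 14 were higher (16.5%, against 7.51% of 23965 genes) and 15 lower (17.6%, against 12.3%), and without any other single library of this comparison 0 members were called. That library held 173 CPM of Kcnq5 where the other 6 DG ECL libraries held 35.7 to 55.5 CPM and the 3 CA3 ECL libraries 180.4, 201 and 207 CPM. It held 129 CPM of Kcna1 (the others 63.7 to 82.0), 15.8 CPM of Kcnh7 (the others 40.9 to 66.7) and 10.7 CPM of Kcnj9 (the others 25.5 to 33.3). Of the 29 calls without it, 24 were shared in the same direction with the 30 calls in Synpo-/- ECL cultures, which is 82.8% of the former and 80.0% of the latter. The overlap over all called genes is not given here.

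For a few members the regional value was not alike before and after lesion. Kcnj10 was not called between the regions after ECL (-0.07 in Synpo+/+ with all libraries, -0.11 without the library labelled DG ECL replicate 5, and 0.31 ± 0.13 in Synpo-/-, adjusted p = 0.145). Kcnj3 was higher in the Synpo-/- DG in controls (0.22) and lower after ECL (-0.38). Kcnj16 was higher in DG after ECL in Synpo-/- (0.68 ± 0.15) where it had -0.07 in controls. In Synpo-/- cultures 5 of 7 astrocyte and 6 of 10 microglia markers were higher in DG after ECL, and in controls 0 were higher and 4 and 2 were lower. Their summed level for astrocytes was 7040 to 8663 CPM in DG and 4348 to 6973 CPM in CA3 after ECL, against 4478 to 5632 and 5583 to 6809 CPM in controls, and their part in these values was not tested. A region by lesion term was not fitted, so these differences were not tested. Kcnj8, which forms ATP-sensitive channels of pericytes with Abcc9, was low everywhere and lower in DG of Synpo-/- cultures (-1.96 ± 0.62 in controls and -2.33 ± 0.35 after ECL). Its control libraries ranged from 0 to 0.815 CPM in DG and from 0.364 to 3.60 CPM in CA3, with overlap. Of 3 pericyte markers, 1 was called higher in DG and 0 lower in each of these comparisons. The log2 fold change was positive for 1 of 3 in controls (median -0.13) and for 2 of 3 after ECL (median 0.27). Their summed level was 128 to 248 CPM in DG and 27.0 to 67.3 CPM in CA3 of the controls. The part of pericytes in the Kcnj8 values was not tested.

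**Figure D3:**
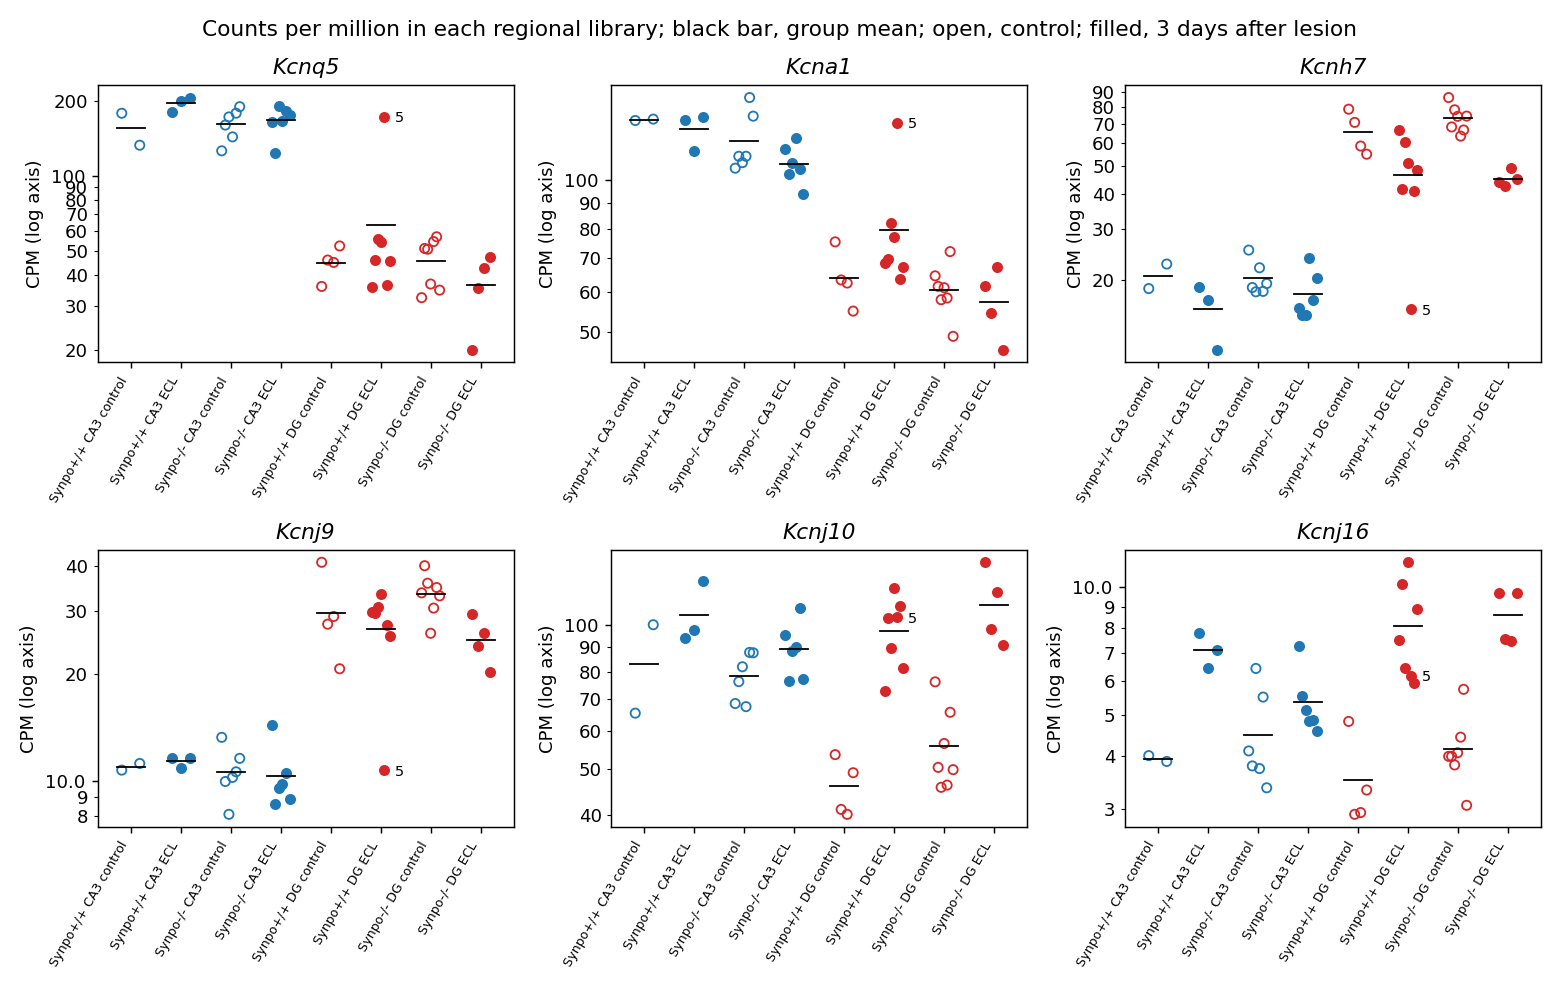
CPM (log axis) of 6 members in each of the 39 regional libraries. Blue is CA3 and red DG, open symbols are controls and filled symbols ECL libraries, black bars are group means, and the digit 5 marks the library labelled Synpo+/+ DG ECL replicate 5. Kcnq5, Kcna1, Kcnh7 and Kcnj9 separate the regions apart from that library, and Kcnj10 and Kcnj16 are higher in ECL than in control DG libraries.

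After lesion, the inward rectifiers of astrocytes rose in the DG of both genotypes. In the Synpo+/+ DG 4 of 86 members rose (4.65%, against 7.86% of 23720 genes) and 2 fell (2.33%, against 4.31%), which is below the background in both directions. In the Synpo-/- DG 5 of 85 rose (5.88%, against 5.17% of 23310 genes) and 9 fell (10.6%, against 3.36%). Kcnj10, Kcnj16 and Kcne1l rose in both genotypes and Kcna4 fell in both. These 4 genes make up 66.7% of the Synpo+/+ calls and 28.6% of the Synpo-/- calls, and the 2 comparisons share no library. The overlap over all called genes is not given here. Leaving out Synpo+/+ DG control replicate 3 or 4 left 2 calls and leaving out ECL replicate 4 left 3, and in Synpo-/- leaving out ECL replicate 1 left 9. Shares over all genes in those fits are not given here. Without the library labelled DG ECL replicate 5, 4 members rose (4.71%, against 8.46% of 23605 genes) and 7 fell (8.24%, against 5.3%) in the Synpo+/+ DG, and 9 of these 11 were called in the same direction in the Synpo-/- DG.

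Kcnj10 rose to about 2 times its control level in DG. Synpo+/+ controls measured 40.1, 41.0, 49.0 and 53.5 CPM, and ECL libraries ranged from 72.9 to 120.1 CPM with a median of 104 (1.00 ± 0.14, adjusted p = 0.000513). Synpo-/- controls ranged from 45.7 to 76.1 CPM with a median of 50.3, and the ECL libraries measured 90.9, 98.1, 118 and 136 CPM (1.00 ± 0.14, adjusted p = 0.000493). Neither genotype had overlap between control and ECL libraries. Kcnj16, whose product forms channels together with that of Kcnj10, rose by 1.12 ± 0.22 in Synpo+/+, from 2.92, 2.95, 3.33 and 4.83 CPM to a range of 5.95 to 11.5 CPM, and by 1.06 ± 0.15 in Synpo-/-, again without overlap. The calls of Kcnj10 and Kcnj16 held in both genotypes whichever library was left out. In Synpo+/+ Kcnj10 rose by 0.97, Kcnj16 by 1.17 and Kcne1l by 1.22 without the library labelled DG ECL replicate 5. Kcne1l, a single-pass auxiliary subunit, rose by 1.19 ± 0.27 and 1.17 ± 0.25 at a low level (1.07 to 2.13 CPM in the Synpo+/+ controls and 2.84 to 6.28 CPM after ECL). Its call was lost without Synpo+/+ DG control replicate 3 or 4 and, in the other genotype, without Synpo-/- DG ECL replicate 1. Kcnj2 rose by 0.72 ± 0.19 in the Synpo-/- DG (adjusted p = 0.0244) and had 1.00 ± 0.53 in the Synpo+/+ DG, where it was not called and ECL libraries ranged from 1.24 to 20.8 CPM. The Synpo-/- call of Kcnj2 was lost without DG control replicate 3 or ECL replicate 1 or 3.

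Glial markers moved with these genes. In the Synpo+/+ DG 5 of 7 astrocyte markers and 10 of 10 microglia markers rose, and in the Synpo-/- DG 6 of 7 and 8 of 10. Without the library labelled DG ECL replicate 5 the Synpo+/+ counts were 6 of 7 and 10 of 10. The summed astrocyte markers ranged from 3966 to 4959 CPM in control and from 6598 to 8846 CPM in ECL libraries of the Synpo+/+ DG, and from 4478 to 5632 and 7040 to 8663 CPM in Synpo-/-. The summed microglia markers ranged from 435 to 620 CPM and from 1189 to 1559 CPM in Synpo+/+, and from 546 to 1326 and 1199 to 1690 CPM in Synpo-/-. None of these markers was at 0 in a regional library, and their part in the rise of Kcnj10, Kcnj16 and Kcne1l was not tested.

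Kcnj13, an inward rectifier known from the choroid plexus, had the largest fold in the Synpo-/- DG (2.22 ± 0.67, adjusted p = 0.0495), and 1 library made it. The Synpo-/- DG ECL libraries measured 1.07, 1.45, 1.92 and 31.5 CPM against 1.37 to 2.50 CPM in controls, and without ECL replicate 2 the value was -0.39, with the direction reversed. Leaving out any of the 7 control libraries also ended the call. The Synpo+/+ DG ECL libraries held 42.4 CPM in replicate 3, 9.07 CPM in replicate 1 and 0.887 to 3.87 CPM in the others (1.96 ± 0.94, not called, and 2.13 without the library labelled DG ECL replicate 5). Ttr, the transthyretin gene typical of choroid plexus and named here after its values were seen, measured 8521 CPM in Synpo-/- DG ECL replicate 2, 6288 and 2311 CPM in Synpo+/+ DG ECL replicates 3 and 1, and at most 138 CPM in each other regional library. The part of choroid plexus in the Kcnj13 values was not tested. Exons of Kcnj13 overlap those of Gigyf2 on the opposite strand over 49.1% of their length, and the counting was unstranded. The same library entered the Synpo-/- ECL regional value of Kcnj13 (2.81 ± 0.77).

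A group of members known mainly from neurons fell after lesion in the Synpo-/- DG. Kcnb2, a delayed rectifier of the soma and dendrites, fell by 0.70 ± 0.10 on the log2 scale (adjusted p = 0.000385), from 48.8 to 62.3 CPM with a median of 56.7 to ECL values of 27.9, 36.8, 36.8 and 36.8 CPM. Kcnh7 fell by 0.70 ± 0.10 (adjusted p = 0.000567), from 63.4 to 86.3 CPM to 42.4, 43.8, 44.8 and 49.0 CPM. Neither gene had overlap between the groups. In the same comparison 6 of 7 astrocyte and 8 of 10 microglia markers were higher, 0 of 7 granule cell markers and 1 of 8 interneuron markers were lower, and the part of the glial markers in these falls was not tested. Kcnj3 fell by 0.57 ± 0.11, Kcnab1 by 0.60 ± 0.15, Kcna4 by 0.55 ± 0.13, Kcnt2 by 0.50 ± 0.11, Kcnj9 by 0.42 ± 0.12, Kcnma1 by 0.39 ± 0.09 and Kcnq3 by 0.34 ± 0.08. Of these, Kcnab1 lost its call without any of 3 libraries (ECL replicates 1, 2 and 3), Kcnq3 without ECL replicate 1 or 4 and Kcna4 without ECL replicate 1. In the Synpo+/+ DG, Kcna4 fell by 0.34 ± 0.10 (adjusted p = 0.0452) and Kcnip4 by 0.39 ± 0.12 (adjusted p = 0.0465), while Kcna6 rose by 0.40 ± 0.13 (adjusted p = 0.0476). These last 3 calls stood at the threshold and were lost without 5, 5 and 10 of the 11 libraries, and 39.6% of the exon length of Kcna6 overlaps an antisense gene. Kcnh7 (-0.58 ± 0.26) and Kcnb2 (-0.38 ± 0.12) were not called there with all libraries. Without the library labelled DG ECL replicate 5, Kcnh7 (-0.45), Kcnb2 (-0.38), Kcnab1 (-0.40), Kcnt2 (-0.42) and Kcnk9 (-0.41) also fell and Kcnj2 rose (1.18), Kcna4 (-0.34) and Kcnip4 (-0.38) were again called, and Kcna6 (0.35) was not. The genotype by lesion interaction in DG called no member.

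**Figure D4:**
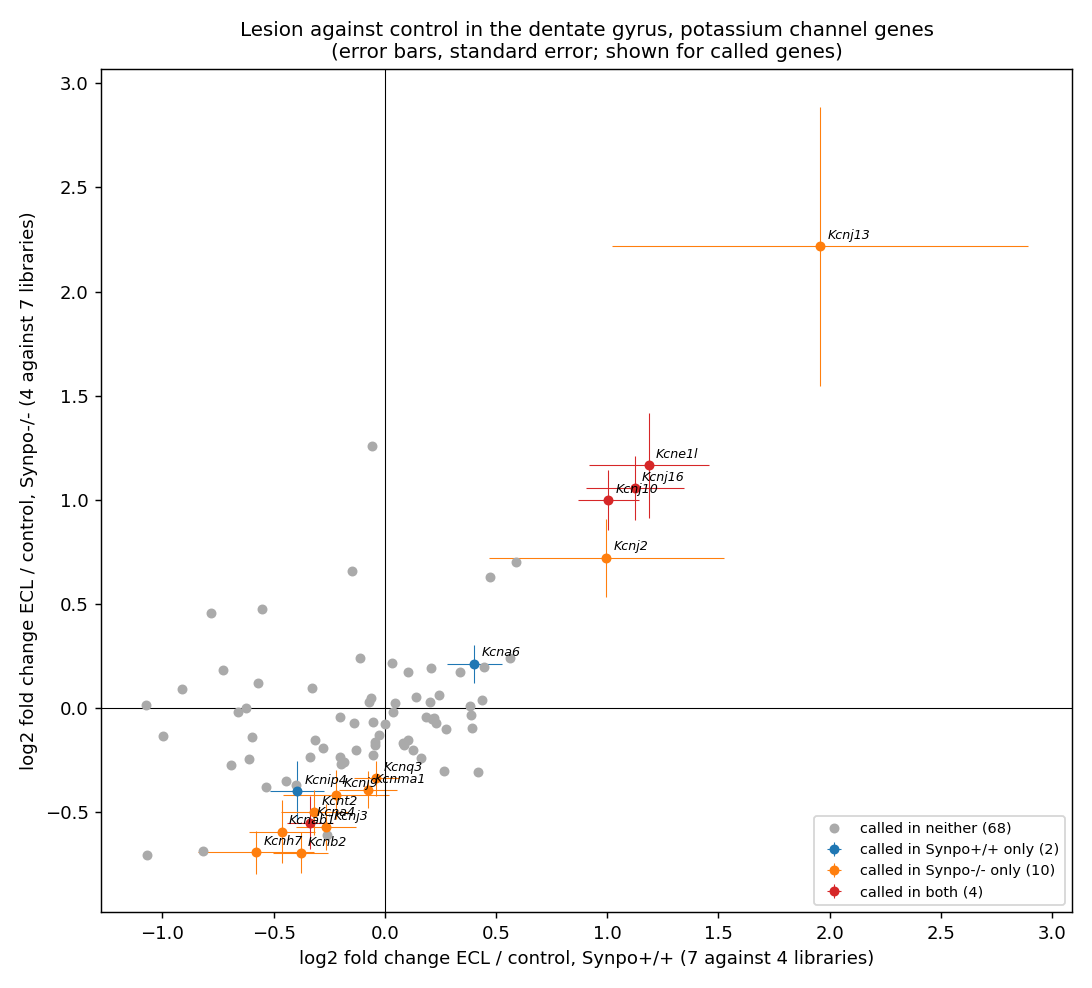
Log2 fold change of ECL against control in the DG, Synpo+/+ (x axis, 7 against 4 libraries) and Synpo-/- (y axis, 4 against 7). Bars are standard errors, drawn for called members. Kcnj10, Kcnj16 and Kcne1l lie near 1 on both axes, and Kcnj13 at the upper right rests on 1 library in Synpo-/-.

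In CA3 no member was called after lesion by edgeR in either genotype, of 81 tested in Synpo+/+ (background 1.5% higher and 0.273% lower of 22340 genes) and 80 in Synpo-/- (background 0.053% and 0.0241% of 20772 genes). At an unadjusted edgeR p under 0.05 there were 14 of 81 and 6 of 80 members, against 5348 of 22340 and 1510 of 20772 genes. DESeq2 called 1 and 0 members, and its counts over all genes are not given here. Kcnj10 had 0.21 ± 0.17 and 0.21 ± 0.10, Kcnj16 0.71 ± 0.22 and 0.27 ± 0.17, and Kcne1l 1.20 ± 0.36 and 0.26 ± 0.23. The Synpo+/+ comparison had 2 control libraries. Kcnj16 measured 3.89 and 4.01 CPM there and 6.47, 7.10 and 7.81 CPM after ECL, which do not overlap, but the difference was not called (adjusted p = 0.0980). In whole-culture input RNA of Synpo+/+ cultures, 1 of 74 members rose (1.35%, against 2.45% of 17951 genes) and 5 fell (6.76%, against 3.16%). Kcnj10 rose by 0.54 ± 0.13, from 93.3, 108, 113, 113 and 119 CPM to 104, 169.6, 172, 174 and 181 CPM, with overlap through input ECL replicate 4. Kcna1 fell by 0.39 ± 0.09, Kcnv1 by 0.48 ± 0.11, Kcnk1 by 0.59 ± 0.14, Kcns3 by 0.57 ± 0.15 and Kcnj9 by 0.29 ± 0.08. Shares over all genes with an input library left out are not given here. Left out in turn, the input libraries gave 0 to 5 calls. Input control replicate 2 and input ECL replicate 3 each ended all of them, input ECL replicate 2 left 1, input control replicate 3 left 2 and input ECL replicate 1 left 3.

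Genotype by itself was not tied to a called change in any member. Between Synpo-/- and Synpo+/+ libraries edgeR called 0 of 89 members in control CA3 (background 0.00413% of 24203 genes), 0 of 84 in ECL CA3 (0.00891% of 22447), 0 of 86 in control DG (0.0166% of 24143) and 0 of 86 in ECL DG (0.0166% of 24100). At an unadjusted edgeR p under 0.05 there were 9, 8, 10 and 5 of these members, against 3959, 1383, 3746 and 859 of these genes. DESeq2 called 2, 0, 0 and 0 members, and its counts over all genes are not given here. Without the library labelled DG ECL replicate 5, edgeR called 0 of 85 members in ECL DG. At an unadjusted p under 0.05 there were 6 members, against 906 of 23972 genes. The smallest p belonged to Kcnf1 in control CA3, with 10.1 and 11.9 CPM in Synpo+/+ and 4.19 to 7.70 CPM in Synpo-/- without overlap (-1.02 ± 0.21, adjusted p = 0.0895). The interactions of genotype with lesion in CA3 and DG, of genotype with region in controls, of genotype with the coIP fraction, and of the lesion with that fraction, called 0 members of 92, 88, 92, 80 and 77 (background 0.0%, 0.00381%, 0.0%, 0.0% and 0.0% of 26821, 26245, 28235, 20621 and 19581 genes). At an unadjusted edgeR p under 0.05 there were 11, 6, 5, 6 and 0 of these members, against 4589, 2730, 1237, 1511 and 434 of these genes. DESeq2 called 0 members in each. Without the library labelled DG ECL replicate 5, the interaction of genotype with lesion in DG called 0 of 88 members. At an unadjusted edgeR p under 0.05 there were 4 members, against 2165 of 25977 genes. With these group sizes a missing call does not show that the genotypes act alike.

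Many potassium channel mRNAs were higher in the synaptopodin coIP than in its input. In the coIP an antibody to synaptopodin on protein A beads pulls the protein and its complexes out of a lysate, with cycloheximide present to hold ribosomes on mRNA, and input is an aliquot of the precleared lysate. In Synpo+/+ control cultures 40 of 74 members were higher (54.1%, against 29.6% of 18222 genes) and 6 lower (8.11%, against 25.5%). The median log2 fold change was 0.48 over the members and 0.04 over all genes. Lesioned Synpo+/+ cultures gave 41 higher (56.2%, against 30.5% of 18229 genes) and 7 lower of 73 (9.59%, against 27.8%), with medians of 0.51 and 0.02. The 2 comparisons share no library, and 42 members were called in the same direction in both, 36 higher and 6 lower, which is 91.3% and 87.5% of their calls. In Synpo-/- cultures, which lack the antibody's target, 17 of 80 were higher (21.2%, against 15% of 20892 genes) and 5 lower (6.25%, against 16.4%), with medians of 0.26 and 0.02. Of the 22 members called there, 19 were called in the same direction in Synpo+/+ controls, which is 86.4% of the Synpo-/- calls and 41.3% of the Synpo+/+ calls. For both pairs of comparisons the overlap over all called genes is not given here. Without Synpo-/- input replicate 2, 10 members were called in Synpo-/-, and the share over all genes in that fit is not given here.

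Pore-forming and auxiliary subunits had different counts, a contrast that was not tested. Of 61 pore-forming members tested in Synpo+/+ controls (silent subunits included), 38 were higher (62.3%, against 29.6% of all genes) and 1 lower (1.64%, against 25.5%), with a median of 0.55. Of 13 auxiliary members (Kcnab, Kcne, Kcnip, Kcnmb, Kcnrg), 2 were higher (15.4%) and 5 lower (38.5%), with a median of -0.35, and the others were not called. In ECL cultures the counts were 39 and 2 of 60 (65.0% and 3.33%, against 30.5% and 27.8%) and 2 and 5 of 13. In Synpo-/- cultures they were 17 and 1 of 67 (25.4% and 1.49%, against 15% and 16.4%) and 0 and 4 of 13. Each of the 4 Kcnc and 3 Kcnd genes was higher in both Synpo+/+ comparisons, as were 4 and 5 of 6 Kcna genes, 5 and 5 of 8 and 7 Kcnh genes, and 3 and 4 of 4 Kcnq genes. The Kcnj genes had 7 and 6 of 11 higher, and the Kcnk genes 2 and 2 of 8.

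Kcnc1 measured 27.6, 28.7, 29.2, 30.4 and 34.9 CPM in input controls and 54.7, 58.8, 59.7, 61.1 and 61.3 CPM in coIP controls (1.02 ± 0.09), with 0.67 ± 0.17 in Synpo-/-, a call lost without Synpo-/- input replicate 2. Kcnt1, the sodium-activated channel gene, had 1.24 ± 0.14, 1.296 ± 0.16 and 0.98 ± 0.16 in Synpo+/+ controls, Synpo+/+ ECL and Synpo-/-. Kcnh3 had 1.59 ± 0.24 and 0.85 ± 0.25, the latter a call lost without any of 3 of the 4 libraries, and Kcnh1 0.96 ± 0.10 and 0.34 ± 0.15 in Synpo+/+ controls and Synpo-/-, the latter not called. Kcna1 (0.76 and 0.27) and Kcnma1 (0.76 and 0.42) showed the same order, and of these Kcnma1 was called in Synpo-/-. With the length trend between libraries removed, Kcnma1 had 0.19 and 0.03 and was not called in either, and the Synpo-/- call of Kcnc1 was lost (0.46). The genotype by fraction interaction set the Synpo-/- libraries against the Synpo+/+ controls. It called none of these genes, with the smallest p for Kcnh1 (-0.57 ± 0.18, adjusted p = 0.519).

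Members lower in the coIP were mainly cytosolic auxiliary proteins. Kcnip4 measured 33.7, 34.2, 36.3, 44.3 and 44.6 CPM in the input controls and 12.8, 12.9, 14.1, 15.9 and 18.6 CPM in the coIP controls, the largest negative difference among the called members (-1.32 ± 0.13, adjusted p = 1.15e-06). It had -1.31 ± 0.12 after ECL, and -0.77 ± 0.15 in Synpo-/-, where the input held 39.4 and 41.0 CPM and the coIP 22.5 and 23.7 CPM. Kcnip3 (-0.57 ± 0.12, -0.65 ± 0.13 and -0.85 ± 0.13) and Kcnab1 (-0.45 ± 0.09, -0.57 ± 0.12 and -0.63 ± 0.13) were lower in all 3 comparisons, including the one without synaptopodin. Kcnip1 (-0.46 and -0.37) and Kcnmb2 (-0.37 and -0.58), an auxiliary subunit of BK channels, were lower in Synpo+/+ controls and ECL, and their control calls were lost without any of 5 and 3 of the 10 libraries and the ECL call of Kcnip1 without any of 6. With the length trend removed, Kcnmb2 had -0.16 and -0.31 and was called in neither. Kcnip2 had -0.12 ± 0.17 and was not called. Kcnab2 went the other way with 0.70 ± 0.13 and 0.82 ± 0.11. Channels that these proteins join were higher in Synpo+/+ controls, with 0.61 ± 0.14 for Kcnd2, 0.61 ± 0.12 for Kcnd3 and 0.69 ± 0.12 for Kcna2. In Synpo-/- Kcna2 had the same value (0.69 ± 0.16, adjusted p = 0.00624), Kcnd3 had 0.39 ± 0.14 (adjusted p = 0.0492, a call lost without any of the 4 libraries) and Kcnd2 had 0.37 ± 0.14 and was not called. With the length trend removed, Kcnd3 (0.27) and Kcna2 (0.27) were not called in Synpo+/+ controls. The sperm channel gene Kcnu1 was the pore-forming member lower in each comparison (-1.07 ± 0.26, -1.14 ± 0.17 and -1.78 ± 0.28).

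Inward rectifier genes of neurons and of astrocytes were higher in the coIP. Kcnj3 had 0.53 ± 0.09, Kcnj6 0.86 ± 0.22, Kcnj4 1.07 ± 0.20 and Kcnj10 0.60 ± 0.11 in Synpo+/+ controls, and Kcnj16 had 0.20 ± 0.23 and was not called. In Synpo-/-, Kcnj4 (1.23 ± 0.25, adjusted p = 0.00361) and Kcnj6 (0.77 ± 0.22, adjusted p = 0.0173) were also higher, while Kcnj3 (0.26 ± 0.13) and Kcnj10 (0.41 ± 0.18) were not called. The Synpo-/- call of Kcnj6 was lost without input or coIP replicate 2. Kcnj10 measured 93.3 to 119 CPM in input and 129.9 to 183 CPM in coIP controls, while 3 of 7 astrocyte markers were higher in the coIP and microglia markers 0 higher and 4 lower of 10. The summed astrocyte markers overlapped, with 19408 to 27018 CPM in input and 22053 to 38337 CPM in coIP controls, and their part was not tested. The study subtracted the Synpo-/- log2 fold change from that of each enriched gene and kept those whose corrected fold change was still more than 30% above 1, a log2 difference above 0.38. Applied to the present fits, this kept 12 of 40 members (30.0%, against 25.2% of the 5389 enriched genes), among them Kcng4, Kcnh3, Kcnn1, Kcnh1, Kcnj11, Kcnk3, Kcna1, Kcnj12, Kcna4 and Kcnc4. This step carries no test. Exons of the 74 members tested had a median length of 4587 bases against 3852.5 for all genes tested. With the length trend between libraries removed, 39, 50 and 16 members were called in either direction in the 3 comparisons, in place of 46, 48 and 22. The shares over all genes with that trend removed are not given here, so these counts are not set against a background.

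**Figure D5:**
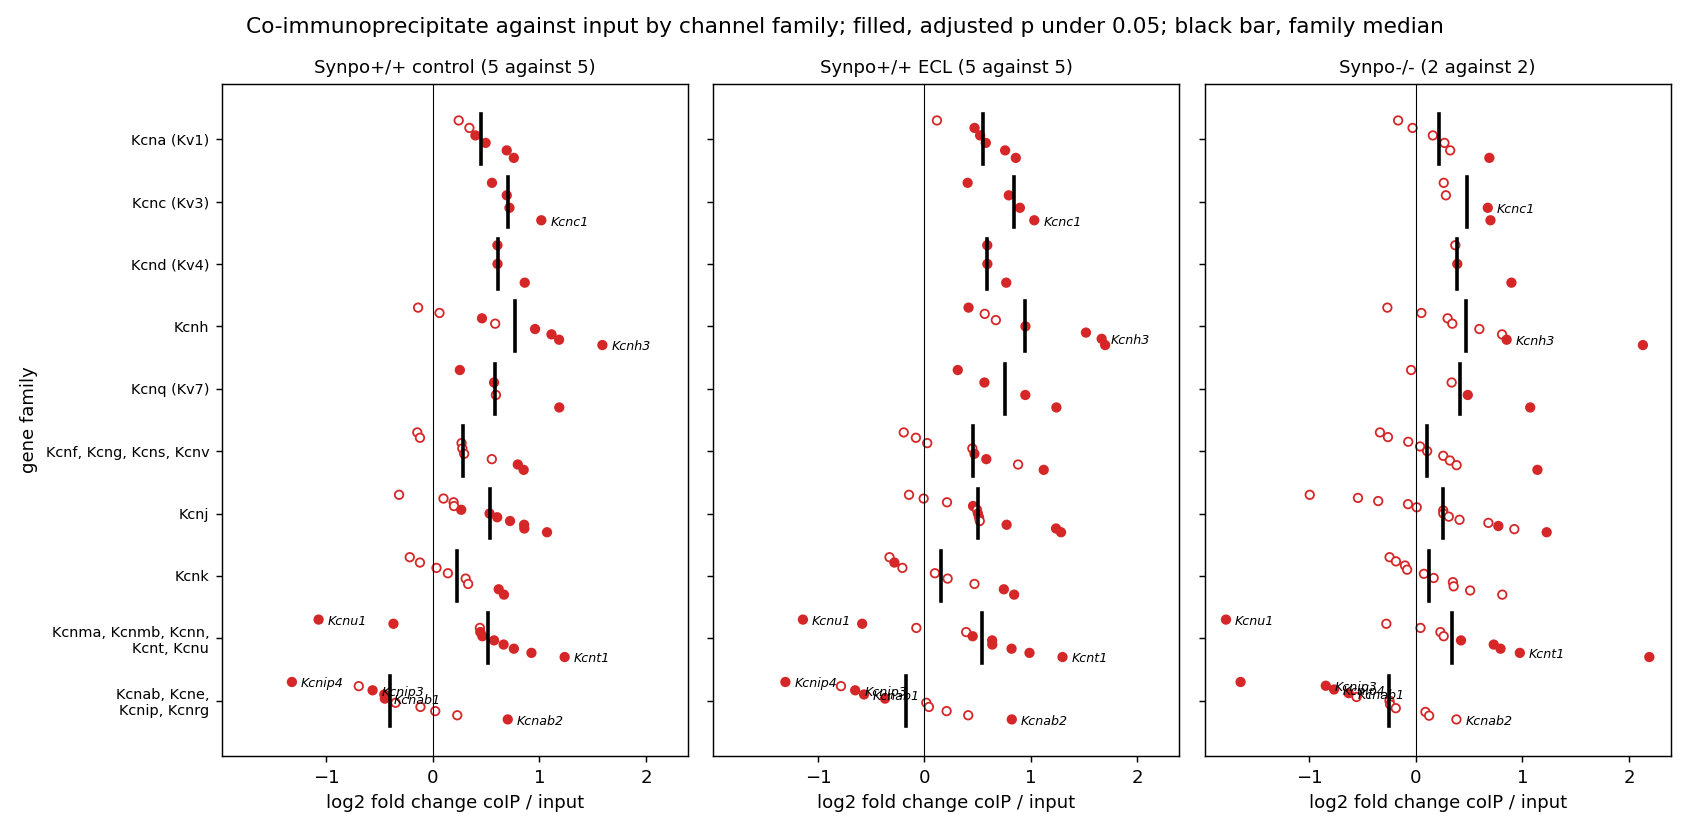
Log2 fold change of coIP against input for the members tested, by gene family (all but Kcnb), in Synpo+/+ control, Synpo+/+ ECL and Synpo-/- cultures. Filled points are called (adjusted p under 0.05) and black bars are family medians. The auxiliary Kcnmb genes are drawn with Kcnma, Kcnn, Kcnt and Kcnu here, while the counts in the text place them with the auxiliary members. The median of the auxiliary family drawn (Kcnab, Kcne, Kcnip, Kcnrg) lies below 0 and those of the other families shown above 0 in all 3 panels.

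Genes whose products join these channels (26 partners, among them Dpp6 and Dpp10 of Kcnd channels, Cntnap2 of Kcna channels, Gabbr1 and Gabbr2 upstream of G protein-coupled Kcnj channels, and the Hcn genes) were counted in the same comparisons. In Synpo+/+ controls 0 of 24 were higher in DG (background 2.63%) and 2 lower (2.75%), Cntnap2 (-0.51) and Gabbr2 (-0.62), and in Synpo-/- controls 5 of 23 were higher (13.1%) and 5 lower (12.5%), with Abcc9 at -1.31 beside its channel partner Kcnj8. After lesion, 1 rose and 2 fell of 24 in the Synpo+/+ DG (background 7.86% and 4.31%) and 0 rose and 5 fell of 24 in the Synpo-/- DG (5.17% and 3.36%), with Dpp10 falling in both (by 0.44 and 0.79). The Synpo+/+ counts were 1 and 2 of 24 without the library labelled DG ECL replicate 5, and Dpp10 fell by 0.48. In the coIP of Synpo+/+ controls 11 of 23 were higher (background 29.6%) and 2 lower (25.5%), with Abcc8 at 1.24, Hcn3 at 0.98, Gabbr2 at 0.84 and the cytosolic Gnb5 at -0.64. In Synpo-/- 5 of 24 were higher (15%) and 3 lower (16.4%), with Abcc8 at 0.93, Gabbr2 at 0.48 and Gnb5 at -0.52 called and Hcn3 at 0.58 not called.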

How the data were processed

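RNA was counted in 39 regional and 24 coIP or input libraries. Per the submitters' processing notes and methods, the authors trimmed reads with cutadapt 3.5, aligned them with STAR 2.7.8a to GRCm38 (mm10), kept libraries with over 60% unique mapping and counted reads per gene with featureCounts 2.0.1 over exons without strand. The deposited values are these raw counts for 55291 symbols, so genes that share exons on either strand cannot be told apart.

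Counts were tested with edgeR 4.0.16 in R 4.3.3 (TMM, filterByExpr, quasi-likelihood test) within the groups of each comparison. Adjusted p is Benjamini-Hochberg's over every gene that passed the filter, and called means below 0.05. Values with ± are log2 fold changes with their SE, computed as the size of the fold change over the square root of F. CPM were scaled by TMM separately in the regional and the coIP libraries. A 2-library group allows few degrees of freedom, and counts carry no molecular identifiers, so the replicate spread was used as the error. Alternatives were DESeq2 1.42.0, RLE size factors, no filter, the replicate number as a block, removal of the length trend (lowess, span 0.3, genes with a mean count over 50), a mean normalized count over 300 and each library left out. Scripts were tested on simulated data. Figures were drawn with matplotlib 3.10.9.

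Wildtype coIP and input libraries of one number come from one lysate, and their deviations from the group means correlated with r of 0.189 to 0.442 in control and 0.105 to 0.381 in ECL pairs. No pair of libraries within a group was a duplicate (chi-square of the counts per degree of freedom of 7.49 or more). Libraries of different groups were not compared, so the library labelled DG ECL replicate 5 was not checked against CA3 libraries. Named genes were the 8 called members with the smallest p in each direction, called interaction members and 38 fixed members, together with the 10 members of highest level. Kcnf1 in the genotype comparison, Kcnj9 in the Synpo-/- lesion, the members fitted without the library labelled DG ECL replicate 5, the list left after the Synpo-/- correction and Ttr were named after their values were seen. Results of some genes are not reported here. The members, lists and tests were chosen with earlier results of these data known.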

Additional observations from a re-analysis of the deposited data

Results flagged for a closer look

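Within groups of 4 to 10 libraries, 13 of 112 values for a named member and group had a highest or lowest library far from the others by Dixon's criterion, which chance gives in about 1 of 20 groups. The library labelled Synpo+/+ DG ECL replicate 5 gave 3 of them, with 173 CPM of Kcnq5, 129 CPM of Kcna1 and 10.7 CPM of Kcnj9, where the other 6 libraries held 35.7 to 55.5, 63.7 to 82.0 and 25.5 to 33.3 CPM. Kcnj13 gave 3, with 31.5 CPM in Synpo-/- DG ECL replicate 2, 42.4 CPM in Synpo+/+ DG ECL replicate 3 and 1.99 CPM in Synpo-/- CA3 control replicate 3, where the others held up to 1.92, 9.07 and 1.14 CPM. The first 2 of these libraries were also the highest in Ttr, and the relation of the 2 genes was not tested.

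Synpo-/- CA3 ECL replicate 1 stood apart in Kcnj9 (14.4 CPM, the others 8.64 to 10.6) and Kcnj16 (7.29 CPM, the others 4.59 to 5.53). Kcnb2 measured 27.9 CPM in Synpo-/- DG ECL replicate 1, where the other 3 libraries held 36.8 CPM each. Kcnk9 measured 28.7 CPM in Synpo-/- DG control replicate 7 (the others 21.3 to 24.3), and Kcne1l 6.28 CPM in Synpo+/+ DG ECL replicate 4 (the others 2.84 to 3.98). In the coIP experiment Kcnj10 measured 104 CPM in Synpo+/+ input ECL replicate 4 (the others 169.6 to 181), and Kcnip4 14.8 CPM in Synpo+/+ coIP ECL replicate 1 (the others 10.3 to 11.6).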

How the results depend on the processing

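Counts of called members moved by over 1.5 times under these alternatives, and the cause was not tested. Among the alternatives, shares over all genes are given only for fits without the library labelled DG ECL replicate 5. The other shifts were not set against those over all genes, so they are not results about these genes. For DG against CA3, Synpo+/+ ECL cultures gave 5 calls in the chosen fit, 20 with DESeq2, 14 without the filter and 33 with the replicate block, and Synpo+/+ controls gave 10 with the block in place of 20. For the lesion, Synpo+/+ CA3 gave 1 with DESeq2 and 5 without the filter in place of 0, Synpo+/+ DG gave 3 without the filter in place of 6, Synpo-/- DG gave 7 with the block in place of 14, and Synpo+/+ input gave 12 with DESeq2 and 2 with the block in place of 6. For genotype in control CA3, DESeq2 gave 2, no filter 1 and the block 4 in place of 0. The labels do not say whether regional libraries of one number share a culture or an animal, or what one number means for control and ECL inputs. Over regional pairs r ran from -0.224 to 0.540, the highest between Synpo-/- DG and CA3 controls. In the coIP the block gave 48, 48 and 24 calls in place of 46, 48 and 22. The labels give each Synpo-/- input library 2 numbers that disagree, so its pairing with the coIP libraries is uncertain (r = 0.0456). The block and the replicate names here use the number in the first part of the label. Leaving out each library in turn gave 11 to 20 regional calls in Synpo+/+ controls, 0 to 29 in Synpo+/+ ECL, 2 to 11 lesion calls in Synpo+/+ DG, 9 to 14 in Synpo-/- DG, 0 to 5 in Synpo+/+ input and 10 to 20 in the Synpo-/- coIP. Interaction counts were 0 under each alternative run. Of 120 named gene and comparison pairs, 77 were called under every alternative, and 1 reversed, Kcnj13 in the Synpo-/- DG lesion (from -0.39 without ECL replicate 2 to 2.60 without ECL replicate 4). Members under 1 CPM per kb rest on few counts, and comparisons with 2 libraries in a group can detect large differences only.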
